A study of Rattus norvegicus with 72 samples.

Results

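Gene expression at 8 h after a distal sciatic nerve lesion was compared with that at 1 and 3 h after the same lesion in dorsal root ganglia of the rat. The comparison used 9 of the 72 arrays of the study, the 3 distal arrays of 8 h labelled a to c against the 3 of 1 h and the 3 of 3 h with those letters. Arrays whose letter is followed by o were left out of it, among them 2 of 8 h. All groups were Wistar rats aged 8 to 12 weeks, and the distal groups shared a crush of the sciatic nerve and differed in the hours between crush and dissection. RNA came from the ganglia at lumbar levels 4 and 5, and the whole study held 29 distal, 22 proximal and 21 sham arrays over 8 times from 1 to 28 h. Distal and proximal are the labels' words for the site of the lesion, and what the sham surgery consisted of is not given there. Levels are log2 intensities of Affymetrix arrays, on which 1 unit is a doubling. Whether each array is an animal of its own or a pool of ganglia is not given in the labels, so p-values measure only the spread between arrays.

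A dorsal root ganglion holds the cell bodies of sensory neurons, each wrapped in satellite glia, with Schwann cells, macrophages, endothelium and connective tissue between them. A crush of the nerve cuts the axons at a distance, and the neurons learn of it first through electrical activity and ion entry and later through proteins carried back along the axon by dynein motors with importins. Transcription factors such as Atf3, Jun, Sox11 and Stat3 and the growth-associated genes they accompany are the best known part of the later answer. The hours around 8 h lie between the first immediate-early genes and that program, which is what a comparison of 8 h with the earlier hours addresses.

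The neuron markers were bright on all 9 arrays, whose medians over probe sets lay between 6.96 and 7.08 log2. The mean of 19 sensory neuron markers was 11.97, 11.68 and 11.94 log2 in the 8 h arrays a, b and c, and lay between 12.01 and 12.10 log2 in the 6 earlier arrays. Array 8 h b stood below the other 8 arrays on this list. On it 177 genes were over 1 log2 unit below the mean of 8 h a and c, among them the transcription factor genes Nfib and Elk4, against 39 genes for 8 h a and 6 for 8 h c, each below the mean of the other 8 h arrays. Array 8 h c was high in skeletal muscle genes. The mean of 33 muscle markers was 6.70, 6.87 and 9.67 log2 in 8 h a, b and c, against 6.45 to 7.11 log2 in the earlier arrays. The fast muscle myosin light chain gene Myl11 read 6.18, 6.11 and 12.38 log2 in 8 h a, b and c, and 8.70 log2 in the highest of the earlier arrays, 3 h a. Alpha-actin of muscle, Acta1, read 8.46, 8.35 and 12.64 log2 in 8 h a, b and c, and 24 of the 33 markers were over 1 log2 unit higher in 8 h c than in the mean of a and b. None of the 33 passed the test between 8 h and the earlier hours, and the median difference of the list was 1.21 log2 with 8 h c and 0.10 without it. No called gene was over 1 log2 unit higher in 8 h c, or lower in 8 h b, than in the mean of the other 8 h arrays. Correlations between the 9 arrays across genes ran from 0.978 to 0.995.

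**Figure D1:**
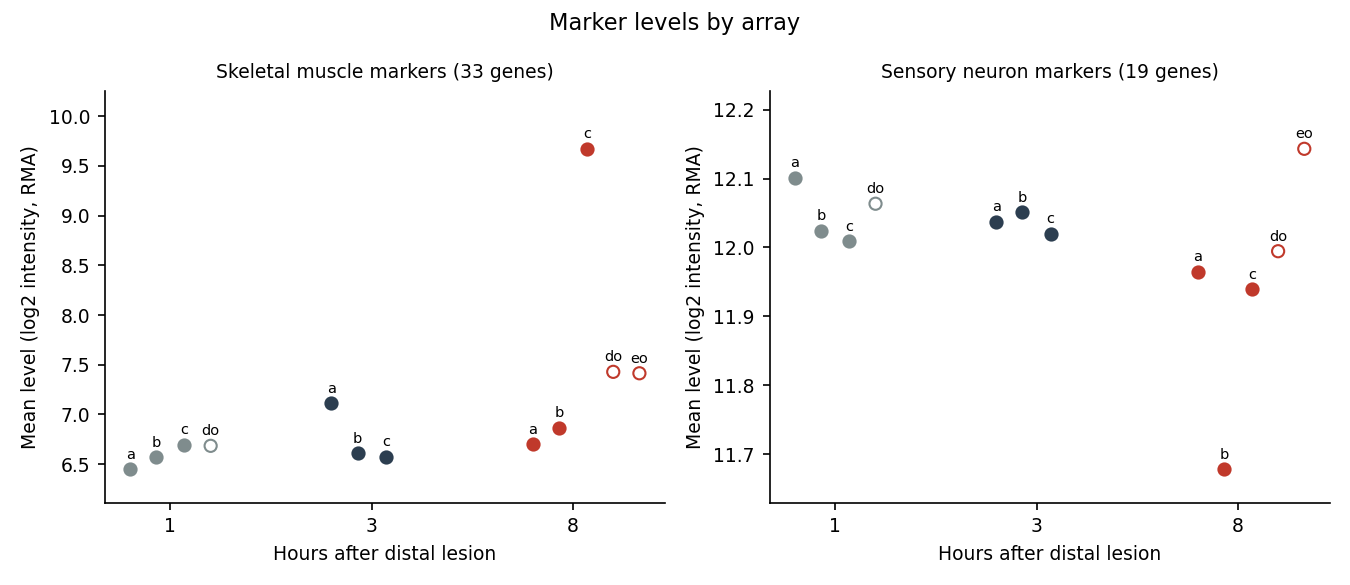
Mean level in log2 intensity (vertical axis) of 33 skeletal muscle markers (left) and 19 sensory neuron markers (right) in each distal array of 1, 3 and 8 h, with the array letter above each point and o arrays open. Among these arrays 8 h c is highest on the muscle list at 9.67 and 8 h b lowest on the neuron list at 11.68. Later distal arrays, not drawn, reach like levels, such as 9.74 in 18 h b and 11.63 in 24 h c.

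Of 12276 genes tested, 177 (1.44%) differed between 8 h and the earlier hours at a Benjamini-Hochberg adjusted p under 0.05 in limma, a linear model fitted across all genes and all lesion groups. Of these 155 (1.26%) were higher at 8 h and 22 (0.179%) lower. Changes were small, with a median size of 0.58 on the log2 scale, and 14 genes changed at least 2-fold, 12 of them upward. In 168 of the 177 genes the 3 arrays of 8 h did not overlap with the 6 earlier arrays. Over all genes tested, all 3 arrays of 8 h lay above the earlier 6 in 7.88% and below them in 4.75%. Without array 8 h c 62 genes were called (0.505%), of which 56 were among the 177. Without array 8 h b 60 were called, of which 55 were among them. With the distal arrays alone in the model 1193 genes were called (9.72%), 761 higher (6.2%) and 432 lower (3.52%), and all 177 were among them. The median residual SD per gene was 0.136 log2 in distal arrays, against 0.235 log2 in proximal and 0.225 log2 in sham arrays, whose spread the model of all lesions shares.

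The 15 rises described first are the largest among genes outside the muscle list that were also called without array 8 h c and whose groups did not overlap, so the lack of overlap is set by that choice. Mt2A, a metallothionein that binds zinc and is induced by metals, glucocorticoids and oxidative stress, read 11.14, 11.74 and 11.22 log2 in 8 h a, b and c, against 9.59, 9.78 and 10.13 log2 as lowest, median and highest of the earlier 6 arrays. It rose 2.88-fold (log2 difference 1.53, SE 0.25, limma adjusted p = 1.29e-04). Prr15, a proline-rich protein gene, read 8.63, 8.96 and 8.82 log2 at 8 h, against 6.67, 7.45 and 7.72 log2 as lowest, median and highest earlier. It rose by 1.45 log2 (SE 0.17, limma adjusted p = 3.31e-07). Pnpla7, a lysophospholipase that breaks down lysophosphatidylcholine, read 8.55, 8.39 and 8.67 log2 at 8 h, against 6.91, 7.31 and 7.50 log2 earlier. It rose by 1.30 log2 (SE 0.16, limma adjusted p = 6.61e-07).

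**Figure D2:**
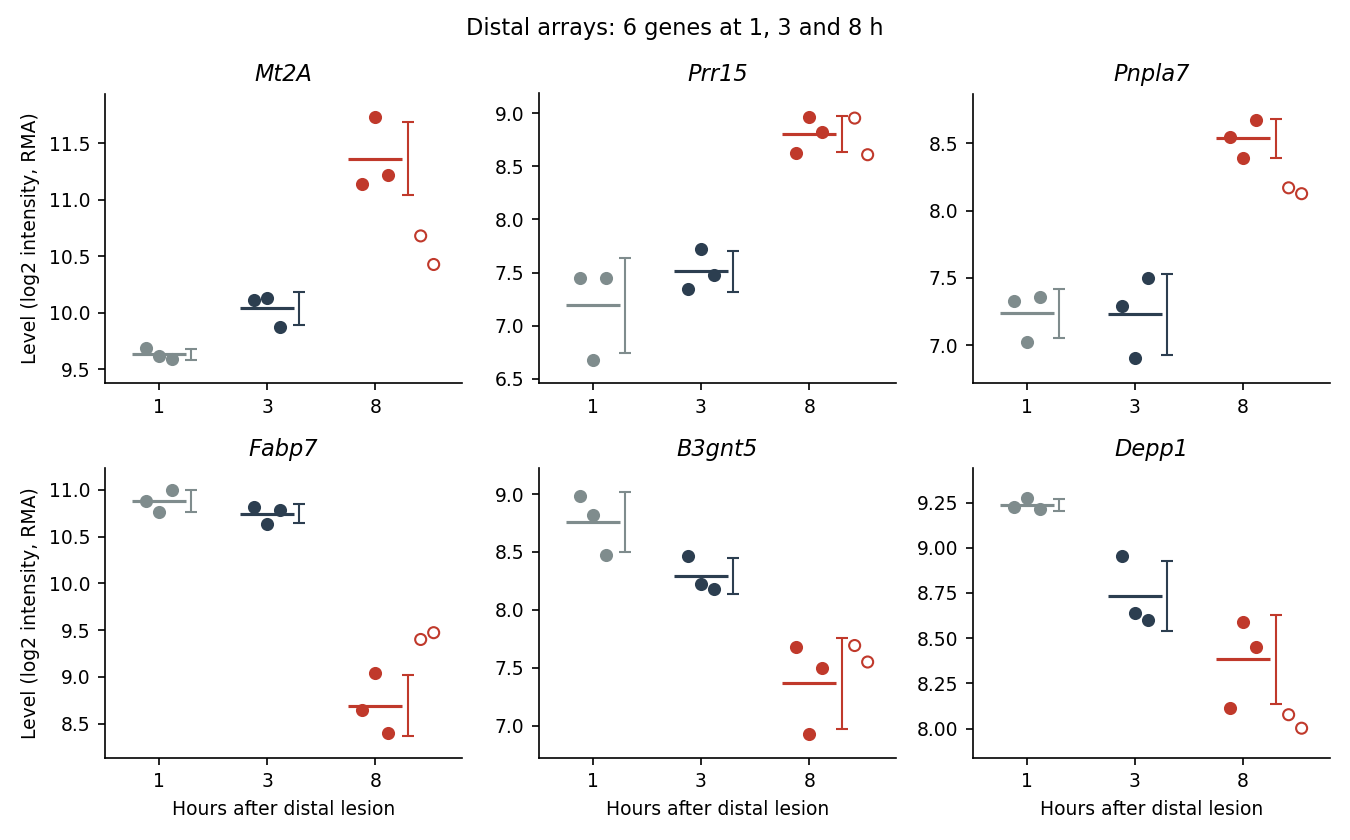
Level in log2 intensity (vertical axis, scaled to each gene) of 3 genes that rose and 3 that fell, in each distal array at 1, 3 and 8 h (horizontal axis). Filled points are arrays a to c, horizontal lines their means, bars 1 SD (n = 3), and open points the 2 arrays of 8 h left out of the comparison. In all 6 genes the filled points of 8 h lie apart from those of 1 and 3 h, and for Mt2A, Pnpla7 and Fabp7 the open points lie between.

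The stretches upstream of the 4 largest rises with an entry in the RefSeq table of rat promoters, and of the largest fall, Fabp7, are printed because these genes moved furthest. Each is the 250 bases before the annotated start, 5′ to 3′ on the gene's strand, in build GRCr8. Capitals mark matches on either strand to the letters TGACGTCA (cyclic AMP response element), TGANTCA (AP-1), TTCNNNGAA (STAT), CACGTG (E-box) and TTATGNAA (D-box). The last motif and the Fabp7 window were added after the values were seen.
Mt2A: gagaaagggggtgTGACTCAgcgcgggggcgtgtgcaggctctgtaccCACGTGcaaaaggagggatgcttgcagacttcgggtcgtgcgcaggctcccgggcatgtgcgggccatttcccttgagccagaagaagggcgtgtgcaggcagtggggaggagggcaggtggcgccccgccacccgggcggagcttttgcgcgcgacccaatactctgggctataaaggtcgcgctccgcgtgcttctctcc
Prr15: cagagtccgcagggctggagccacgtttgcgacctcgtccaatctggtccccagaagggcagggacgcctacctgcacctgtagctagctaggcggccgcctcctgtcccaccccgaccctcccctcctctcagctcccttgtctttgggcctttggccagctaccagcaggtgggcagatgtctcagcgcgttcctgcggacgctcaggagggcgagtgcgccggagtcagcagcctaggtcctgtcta
Pnpla7: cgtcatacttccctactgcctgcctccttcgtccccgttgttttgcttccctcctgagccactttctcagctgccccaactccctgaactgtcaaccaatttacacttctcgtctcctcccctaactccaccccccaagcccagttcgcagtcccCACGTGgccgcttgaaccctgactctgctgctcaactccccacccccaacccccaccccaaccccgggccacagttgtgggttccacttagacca
Aadat: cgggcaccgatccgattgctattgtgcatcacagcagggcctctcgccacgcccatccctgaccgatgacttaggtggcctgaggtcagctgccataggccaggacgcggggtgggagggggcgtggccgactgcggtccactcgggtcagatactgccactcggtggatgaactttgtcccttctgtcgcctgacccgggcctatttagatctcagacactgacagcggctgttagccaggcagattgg
Fabp7: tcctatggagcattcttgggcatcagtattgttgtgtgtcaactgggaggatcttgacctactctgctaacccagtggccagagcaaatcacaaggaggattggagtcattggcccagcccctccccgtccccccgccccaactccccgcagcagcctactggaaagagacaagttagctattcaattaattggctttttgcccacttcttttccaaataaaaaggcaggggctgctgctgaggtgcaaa
They lie at chr19:10838709-10838958 on the minus strand (Mt2A), chr4:84762107-84762356 on the plus strand (Prr15), chr3:28180501-28180750 on the plus strand (Pnpla7), chr16:34555181-34555430 on the minus strand (Aadat) and chr20:37669356-37669605 on the plus strand (Fabp7). Mt2A held an AP-1 match from 237 to 231 bases before the start and an E-box from 202 to 197, Pnpla7 an E-box from 95 to 90, and the other 3 windows none of the 5. Over all 27457 rat windows of this length 6.36% held the AP-1 letters, 5.79% the E-box, 1.70% the cyclic AMP element, 7.52% the STAT letters and 3.21% the D-box. Of 123 windows of genes called higher 4.07% held the AP-1 letters, 8.94% the E-box, 0.813% the cyclic AMP element, 10.6% the STAT letters and 0% the D-box. A window of the table was found for 23 of the 25 genes named as largest rises and falls, and a match of letters is a description and not a binding site.

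Also among the 15 was Acss3, a mitochondrial acyl-CoA synthetase for short fatty acids, which read 7.21, 7.99 and 7.20 log2 at 8 h, against 5.77, 6.23 and 6.55 log2 as lowest, median and highest earlier, and rose by 1.27 log2 (SE 0.24, limma adjusted p = 1.60e-03). Without 8 h b its adjusted p was 0.0764. Aadat, an aminotransferase of the kynurenine and lysine pathways, read 6.47, 7.37 and 7.17 log2 at 8 h, against 5.64, 5.78 and 6.05 log2 earlier, and rose by 1.19 log2 (SE 0.17, limma adjusted p = 1.70e-05). Slc25a48, of the mitochondrial carrier family, rose by 1.06 log2 and Mtfr2, of a family that controls mitochondrial fission, by 1.08 log2. Slc43a1, a transporter of large neutral amino acids, rose by 0.94 log2, and Nat8f5, of an acetyltransferase family, by 0.98 log2. Picked after their values were seen, Slc2a4, the insulin-responsive glucose transporter, was 0.70 log2 higher (limma adjusted p = 4.51e-05), Pnpla2, the lipase that starts triglyceride breakdown, 0.69 log2 higher (adjusted p = 0.0186), and Cpt1b, which admits fatty acids to mitochondria, 0.64 log2 higher (adjusted p = 0.0153). Skeletal muscle also expresses Slc2a4 and Cpt1b. Without array 8 h c the log2 differences were 0.67 (limma adjusted p = 2.75e-03) for Slc2a4, 0.60 (adjusted p = 0.192) for Pnpla2 and 0.49 (adjusted p = 0.246) for Cpt1b.

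Nab2, a co-repressor of the Egr transcription factors, read 8.11, 7.82 and 8.05 log2 at 8 h, against 6.31, 6.91 and 7.27 log2 earlier, and rose by 1.10 log2 (SE 0.17, limma adjusted p = 3.83e-05). Trim72, a membrane repair protein best known from muscle, read 6.37, 6.70 and 6.71 log2 at 8 h, against 5.06, 5.55 and 5.79 log2 earlier, and rose by 1.15 log2 (SE 0.22, limma adjusted p = 1.64e-03). It was not raised on 8 h c alone, and without that array it differed by 1.09 log2 (limma adjusted p = 0.0278). Man1a1, a Golgi mannosidase that trims N-glycans, rose by 1.13 log2, Ajuba, a LIM-domain scaffold of cell junctions, by 0.98 log2, and Otulinl, a relative of the deubiquitinase Otulin, by 0.92 log2. Rbm3, a cold-induced RNA-binding protein, read 11.38, 11.75 and 11.61 log2 at 8 h, against 10.35, 10.68 and 11.02 log2 earlier, and rose by 0.90 log2 (SE 0.16, limma adjusted p = 6.97e-04). A second probe set existed above the filter for Ajuba, Man1a1, Mtfr2 and Slc25a48 and was higher at 8 h by 0.51, 0.59, 0.50 and 0.53 log2 (limma unadjusted p = 6.37e-03 or less in each). Without 8 h b the adjusted p of Otulinl was 0.0733.

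Crh, the peptide corticotropin-releasing hormone, had the largest rise of all called genes, 2.09 log2 (SE 0.53, limma adjusted p = 0.0289), but not in every array. It read 8.47, 7.68 and 5.09 log2 in 8 h a, b and c, against 4.76, 4.94 and 5.43 log2 as lowest, median and highest earlier, so 8 h c lay among the earlier arrays. The 2 left-out arrays of 8 h read 6.70 and 5.06 log2. Without 8 h c it differed by 3.09 log2 (limma adjusted p = 1.71e-03) and without 8 h b by 1.79 log2 (adjusted p = 0.255). The highest of the earlier levels lay just below 5.46 log2, the mean level a gene had to reach to be tested, and differences that rest on such dim levels can understate a change.

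Except for Cyp26b1, further called genes were picked after their values were seen. Cyp26b1, which breaks down retinoic acid, read 9.31, 9.58 and 9.62 log2 at 8 h, against 8.25, 8.51 and 8.72 log2 earlier, and rose by 1.02 log2 (SE 0.24, limma adjusted p = 0.0135), with adjusted p = 0.110 without 8 h c and 0.0960 without 8 h b. Plxnb1, a semaphorin receptor, read 7.82, 7.73 and 7.78 log2 at 8 h, against 6.63, 6.86 and 7.25 log2 earlier, and rose by 0.84 log2 (SE 0.14, limma adjusted p = 1.36e-04). Neither gene had an overlap between the groups. Klf11, a zinc finger factor of the same family as Klf10, rose by 0.73 log2, Gem, a small GTPase that restrains calcium channels, by 0.70 log2, and Myd88, the adaptor of Toll-like receptors, by 0.61 log2. The nuclear receptor genes Rxrg and Thrb rose by 0.55 and 0.52 log2, and the growth factor receptor gene Fgfr3 by 0.63 log2. Without 8 h c the adjusted p was 0.0626 for Klf11 and 0.284 for Thrb, and without 8 h b it was 0.0517 for Klf11 and 0.0513 for Gem. Other probe sets above the filter gave smaller differences. Those of 0.22 and 0.08 log2 for Plxnb1, 0.20 log2 for Klf11, 0.16 log2 for Rxrg and 0.10 log2 for Thrb did not pass an unadjusted p of 0.05. A second one of Cyp26b1 was higher by 0.28 log2 and one of Fgfr3 by 0.31 log2 (limma unadjusted p = 0.0173 and 0.0102).

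Fabp7 had the largest fall of all genes tested. This brain-type fatty acid binding protein marks satellite glia. It read 8.64, 9.04 and 8.40 log2 in 8 h a, b and c, against 10.63, 10.80 and 11.00 log2 as lowest, median and highest of the earlier arrays. Its level at 8 h was 0.230 of the earlier one (log2 difference -2.12, SE 0.28, limma adjusted p = 2.38e-06), with no overlap. Along the distal series Fabp7 averaged 10.88 log2 at 1 h, 10.75 log2 at 3 h, 8.69 log2 at 8 h, 9.76 log2 at 12 h and 11.34 log2 at 16 h, and lay between 10.80 and 11.59 log2 from 18 to 28 h, so 8 h was its lowest point. In bulk RNA fewer cells of a type and less RNA per cell cannot be told apart. B3gnt5, the glycosyltransferase that starts the lacto series of glycosphingolipids, read 7.68, 6.93 and 7.50 log2 at 8 h, against 8.18, 8.47 and 8.98 log2 earlier. It fell by 1.16 log2 (SE 0.23, limma adjusted p = 2.30e-03), and its distal mean was back at 8.90 log2 by 16 h. Without 8 h b its adjusted p was 0.0849.

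These 2 and a further 8 were the largest called falls among genes whose groups did not overlap, and the 8 lay between 0.58 and 0.75 log2. The synaptotagmin gene Syt6 and Alas2 fell further than these 8, by 0.86 and 0.81 log2, with overlapping groups. Nfil3, a transcriptional repressor tied to the circadian clock, read 6.42, 7.18 and 6.98 log2 at 8 h, against 7.26, 7.62 and 7.89 log2 earlier, and fell by 0.75 log2 (SE 0.19, limma adjusted p = 0.0224). Serpinh1, the chaperone of collagen, read 10.33, 10.18 and 10.75 log2 at 8 h, against 10.89, 11.12 and 11.30 log2 earlier, and fell by 0.68 log2 (SE 0.18, limma adjusted p = 0.0304). Pdpn, the membrane mucin podoplanin, read 10.06, 9.88 and 9.88 log2 at 8 h, against 10.10, 10.62 and 10.87 log2 earlier, and fell by 0.63 log2 (SE 0.13, limma adjusted p = 5.53e-03). Depp1, a gene under FOXO control, fell by 0.60 log2, Cspg5, a neural chondroitin sulfate proteoglycan, by 0.66 log2, and Grk5, a kinase of G protein-coupled receptors, by 0.60 log2. H4f3, a histone H4 gene with near-identical copies, fell by 0.70 log2, and Mtm1, a phosphoinositide phosphatase, by 0.58 log2 to levels of at most 5.45 log2 at 8 h, below the filter. Only 6 falls without overlap were also called without array 8 h c, too few for 10 names, so that condition was dropped for the choice of falls. Of the 10 named, Fabp7, B3gnt5, Serpinh1 and Depp1 were called without 8 h c, and Fabp7, Nfil3 and Depp1 without 8 h b.

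The 2 arrays of 8 h labelled with an o, which share the earlier arrays as their comparison, gave values of their own for the same genes. Against the same 6 earlier arrays 195 genes were called (1.59%). Of the 47 called genes singled out for description, 26 were called with the o arrays and 21 were not. Prr15 read 8.95 and 8.61 log2 on them, Pnpla7 8.17 and 8.13 log2, Nab2 7.97 and 8.02 log2 and Ajuba 9.08 and 9.15 log2, all above the earlier arrays and all called. Fabp7 read 9.40 and 9.47 log2 and was 1.38 log2 below the earlier level (limma adjusted p = 0.0125). Mt2A read 10.68 and 10.43 log2, above the earlier arrays by 0.72 log2 and not called (limma adjusted p = 0.243). The muscle list averaged 7.43 and 7.41 log2 on these arrays, above the earlier range.

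The proximal and sham arrays allow the hours to be compared in samples that the distal comparison did not use. All 9 distal arrays fell in 1 technical set, found by clustering all arrays on dim probe sets into 4 sets, whereas sham and proximal arrays of 1 h lay in another set than those of 3 and 8 h. Sham and proximal arrays were therefore read as 8 h against 3 h. All sham and proximal arrays of these hours lay in a set that held none of the 9 distal arrays. Their interquartile range over probe sets was 2.76 to 3.14 log2, against 3.53 to 3.69 log2 in the distal arrays of 3 and 8 h, so wherever distal changes are set against sham or proximal ones, lesion and set cannot be told apart. Between these hours 13 genes were called in proximal arrays (0.106%), and 0 in sham arrays (0%), where 354 had an unadjusted limma p under 0.05. Of the 13, 8 were among the 177 of the distal comparison with the same direction, which is 61.5% of the 13 and 4.52% of the 177. They were Fabp7, Pdpn, Adamts9, Cemip and Adam17, which were lower at 8 h after both lesions, and Prr15, Prodh and Caskin2, which were higher after both. Without 8 h c the distal adjusted p was 0.0619 for Pdpn, 0.110 for Adamts9, 0.199 for Cemip, 0.148 for Adam17 and 0.218 for Caskin2. A second Adamts9 probe set differed by 0.30 log2 in the distal comparison (limma unadjusted p = 0.123), opposite to the one used. The other 5 were Aif1, Itgb3, Col14a1, Marcksl1 and Ccl2. Of the 177 genes 156 had the same sign in proximal arrays and 79 in sham arrays. Between 8 and 3 h those called higher had a median of 0.55 log2 in distal, 0.22 log2 in proximal and -0.04 log2 in sham arrays. Over all genes tested the medians were 0.01, 0.01 and -0.06 log2. Those called lower had medians of -0.54 log2 in distal, -0.32 log2 in proximal and -0.10 log2 in sham arrays. The 177 genes were chosen by their distal difference, so the size of their distal medians is partly set by that choice. The muscle list averaged 6.61 to 6.66 log2 in proximal arrays of 8 h, against 6.87 to 8.33 log2 in those of 3 h, and its part in the proximal values was not tested.

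**Figure D3:**
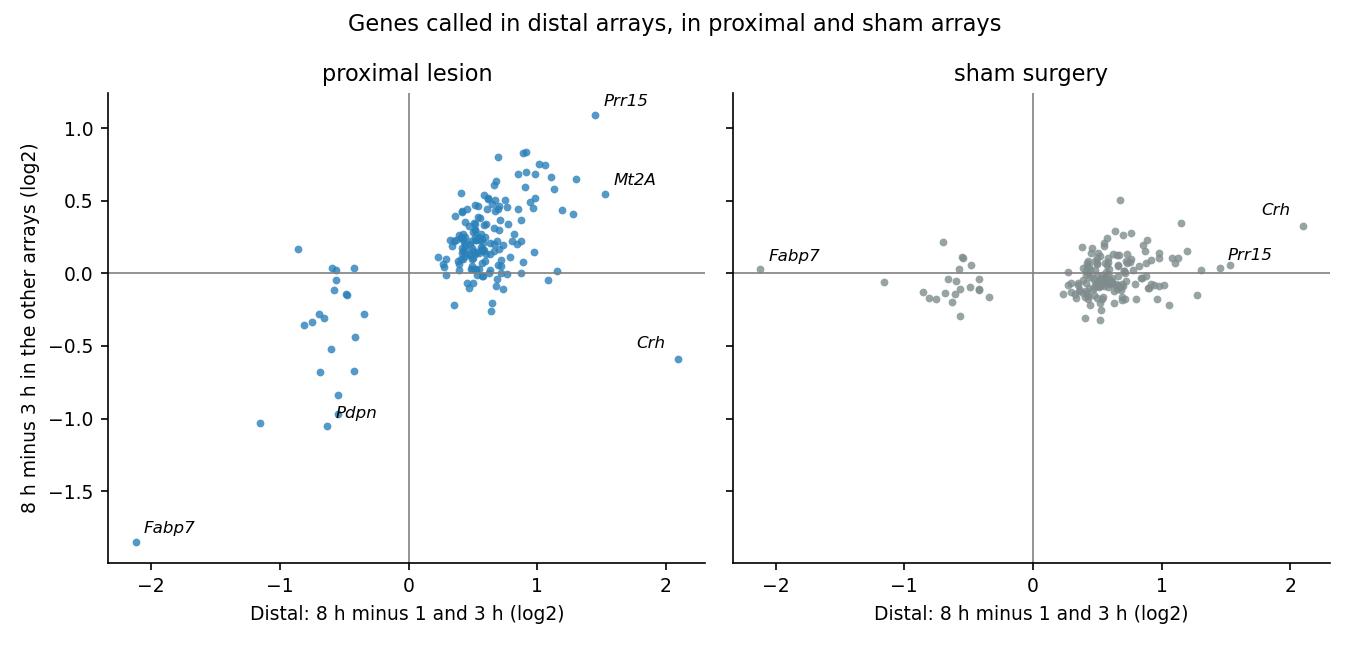
The 177 genes called in distal arrays, with their log2 difference between 8 h and 1 and 3 h in distal arrays (horizontal axis) against their log2 difference between 8 h and 3 h in proximal arrays (left, vertical axis) and sham arrays (right, same scale). Each point is a gene. In proximal arrays 156 of the 177 points share the sign of the distal difference, and Fabp7 lies at -1.85 and Prr15 at 1.09 log2, while in sham arrays 79 share the sign.

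Fabp7 differed between 8 and 3 h by -2.05 log2 in distal, by -1.85 log2 in proximal and by 0.03 log2 in sham arrays. Proximal means over the 8 times were 10.03, 9.93, 8.08, 9.75, 10.91, 11.19, 10.76 and 9.97 log2, with 8 h lowest as in the distal series, and sham means stayed between 9.71 and 10.80 log2. Proximal and sham arrays of hours other than 3 and 8 h lay partly or wholly in other technical sets. Set and hour cannot be told apart along these courses. The distal change minus the sham change was -2.08 log2 (SE 0.45, limma adjusted p = 0.0560), and the distal change minus the proximal change was -0.20 log2 (adjusted p = 0.999), and neither was called. Prr15 differed by 1.29 log2 in distal, 1.09 log2 in proximal and 0.03 log2 in sham arrays. Prodh, which starts proline breakdown, differed by 0.86, 0.83 and -0.10 log2 in the same order. Adamts9, a secreted protease, and Cemip, which takes part in hyaluronan breakdown, differed by -0.72 and -0.36 log2 in distal, by -0.97 and -0.84 log2 in proximal and by 0.11 log2 each in sham arrays. The sheddase gene Adam17 differed by -0.24 log2 in distal, -0.67 log2 in proximal and -0.04 log2 in sham arrays.

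**Figure D4:**
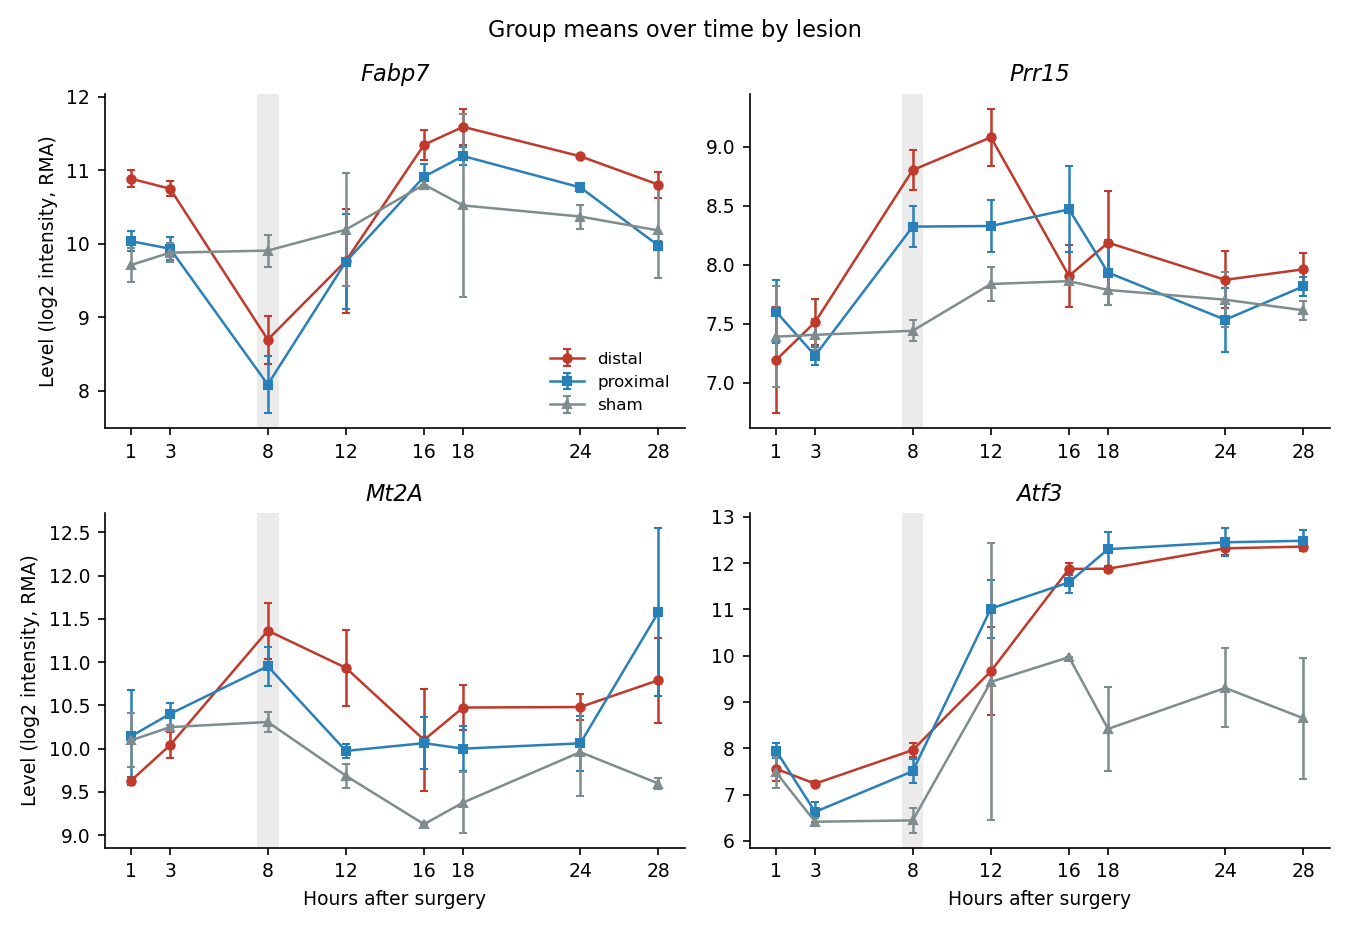
Group means in log2 intensity (vertical axis) of Fabp7, Prr15, Mt2A and Atf3 over hours after surgery (horizontal axis) in distal, proximal and sham arrays without o arrays, with bars of 1 SD over the arrays of a group (sham at 16 h is 1 array and has none) and 8 h shaded. Fabp7 has its lowest point at 8 h after both lesions, Prr15 and Mt2A are at 8.80 and 11.36 log2 in distal arrays at 8 h, and Atf3 is at 7.96 log2 then and at 11.88 log2 by 16 h.

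A test of the distal change against the sham change, both between 8 and 3 h, called 5 genes (0.0407%), all with a higher difference in distal arrays. Ctns, the lysosomal cystine transporter, read 10.37, 10.31 and 10.31 log2 in 8 h a, b and c, against 9.40, 9.46 and 9.69 log2 as lowest, median and highest at 1 and 3 h, and its change between 8 and 3 h was 0.81 log2 in distal and -0.03 log2 in sham arrays (difference 0.83, SE 0.15, limma adjusted p = 0.0262). Sox10, the transcription factor of the glial lineage, differed by 0.88 log2 in distal and -0.20 log2 in sham arrays (difference 1.08, SE 0.22, adjusted p = 0.0420). Distal means of Sox10 were 9.05, 8.54 and 9.42 log2 at 1, 3 and 8 h, so the 3 h mean lay below that of 1 h. Pnpla7 differed by 1.31 log2 and 0.02 log2, Ajuba by 1.01 log2 and -0.09 log2, and Ndrg1, a stress-responsive gene strong in Schwann cells, by 0.25 log2 and -0.14 log2 in distal and sham arrays. A second Ndrg1 probe set differed by -0.32 log2 between 8 h and the earlier distal hours (limma unadjusted p = 0.391), opposite to the one used. The same test with 1 and 3 h as the earlier hours called 400 genes (3.26%), but there sham hours lie in different technical sets, the median over all genes was shifted by 0.16 log2, and set and hour cannot be told apart in the sham arrays. Against the proximal change 1 gene was called (0.00815%), Pou3f1, a POU-domain transcription factor of Schwann cells, with a difference of 1.14 log2 (0.43 log2 in distal and -0.71 log2 in proximal arrays, whose 1 h arrays lay in another set), and no gene was called between 8 and 3 h alone, where 475 had an unadjusted limma p under 0.05.

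Few genes passed the test between the earlier hours themselves. Between 3 h and 1 h in distal arrays 1 gene was called (0.00815%), Alas2, an enzyme of heme synthesis in red cell precursors, which was 1.33 log2 higher at 3 h (limma adjusted p = 6.23e-03), and 224 genes had an unadjusted p under 0.05. Alas2 read 7.71, 6.88 and 7.51 log2 in 8 h a, b and c, against 7.06, 8.13 and 9.18 log2 as lowest, median and highest earlier, and was 0.81 log2 lower at 8 h (limma adjusted p = 0.0224) with overlapping groups, and its adjusted p was 0.0699 without 8 h c and 0.418 without 8 h b. Hbb, a hemoglobin gene, differed by -0.90 log2, at 11.71, 10.55 and 11.93 log2 at 8 h, against 11.36, 12.28 and 12.95 log2 earlier (limma adjusted p = 0.0624). The mean of 4 erythrocyte markers was 8.08, 7.60 and 8.10 log2 in 8 h a, b and c, and lay between 7.74 and 8.95 log2 earlier, where the 3 arrays of 3 h were highest. The part of blood in these differences was not tested.

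Of the 40 tested genes of the injury and regeneration list 0 were called, where 1.44% of all genes were, so a count of 0 does not set the list apart. The median difference of the list was 0.02 log2, and that of all genes was the same to 2 decimals. Atf3, the transcription factor most typical of axotomized neurons, read 7.96, 7.82 and 8.11 log2 at 8 h, against 7.19, 7.28 and 7.75 log2 earlier. Its difference was 0.57 log2 (SE 0.45, limma adjusted p = 0.805), although the 8 h arrays lay above all earlier ones, and it averaged 9.67 log2 at 12 h and 11.88 log2 at 16 h. Sox11 differed by -0.42 log2 at levels under the filter at 8 h, and the growth cone protein Gap43 by 0.00 log2 (adjusted p = 0.996). The neuropeptide genes Gal and Npy differed by 0.18 and 0.30 log2, and Stat3 and its feedback inhibitor Socs3 by 0.09 and 0.31 log2, none of them called. The list of JAK-STAT signalling held 0 called of 22. With the distal arrays alone in the model, 4 of the 40 were called, Anxa1 and Klf6 higher and Basp1 and Hspb1 lower, close to the 9.72% of all genes called in that fit. Other probe sets of Klf6 differed by -0.56 and -0.61 log2, and one of Basp1 by 0.02 log2. Gadd45a, of the later program, differed by 0.08 log2 and was not called. The means of Il6, Sprr1a and Vip lay below the filter level at 1, 3 and 8 h, too dim for their differences to be read.

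Of 34 immediate-early genes 2 were called, both higher, where 1.26% of all genes were called higher. Klf10, a zinc finger repressor, read 9.49, 9.29 and 9.43 log2 at 8 h, against 8.67, 8.78 and 8.90 log2 earlier, and rose by 0.61 log2 (SE 0.15, limma adjusted p = 0.0196). The orphan nuclear receptor Nr4a1 rose by 0.48 log2 with overlapping arrays. Fos was 0.75 log2 higher and not called (limma adjusted p = 0.521), with 8.78, 8.27 and 8.05 log2 at 8 h, against 7.16, 7.50 and 8.45 log2 earlier. Egr1 and Jun differed by -0.14 and -0.11 log2. With the distal arrays alone fitted, 6 of the 34 were higher, Fos, Klf10, Nr4a1, Ier5, Klf6 and Myc, and 2 lower, the phosphatase gene Dusp1 and the regulator Rgs2, where that fit called 6.2% of all genes higher and 3.52% lower. Among MAP kinases and their phosphatases 1 of 21 was called with all lesions fitted, against 1.44% of all genes. It was Dusp5, which fell by 0.57 log2 with overlapping arrays. The adjusted p without 8 h c was 0.118 for Klf10, 0.203 for Nr4a1 and 0.253 for Dusp5, and without 8 h b 0.0603 for Klf10 and 0.293 for Dusp5.

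Among 19 clock genes the 2 called were a pair of opposed factors, where 1.44% of all genes were called. Tef, an activator of the D-box, read 9.32, 9.46 and 9.31 log2 at 8 h, against 8.62, 8.86 and 9.10 log2 earlier, and rose by 0.51 log2 (SE 0.13, limma adjusted p = 0.0344), while Nfil3, a repressor of the same element, fell as given above. For Tef the adjusted p was 0.118 without 8 h c and 0.233 without 8 h b, and for Nfil3 0.0772 without 8 h c. Other Tef probe sets differed by -0.30 and 0.16 log2 and were not below an unadjusted p of 0.05. In 8 of the 19 all 8 h arrays lay above the earlier ones and in 2 below, against 7.88% and 4.75% of all genes. Cry1, a core repressor of the clock, read 8.01, 8.20 and 8.25 log2 at 8 h, against 7.21, 7.36 and 7.50 log2 earlier, a difference of 0.78 log2 (limma adjusted p = 0.0853). With the distal arrays alone fitted 6 were called higher (Cry1, Cry2, Tef, Hlf, Dbp and Nr1d2) and 3 lower (Nfil3, Bmal1 and Npas2), against 6.2% and 3.52% of all genes. Other probe sets above the filter differed by -0.19 log2 for Cry2, by 0.47 and 0.13 log2 for Hlf and by 0.32 and -0.04 log2 for Nr1d2. That fit called 5 higher and 2 lower without 8 h c, and 4 higher and 3 lower without 8 h b. Over all 12276 genes it called 536 higher and 372 lower without 8 h c, and 400 and 163 without 8 h b. Per1 and Nr1d1 differed by 0.14 and 0.21 log2 and were not called. Between 8 and 3 h the median of the list was 0.01 log2 in proximal and -0.09 log2 in sham arrays. In distal arrays it was 0.17 log2 for 8 h against 1 and 3 h, which is not a like measure. Over all genes tested the medians were 0.01, -0.06 and 0.02 log2 in the same order. The hour of the day of each dissection is not given in the labels, so hours after the lesion and hour of day cannot be told apart.

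Of 23 genes of BMP, activin and TGF-beta signalling 2 were called, both higher, where 1.26% of all genes were called higher. Id3, an inhibitor of basic helix-loop-helix factors and a direct BMP target, read 11.24, 10.97 and 11.47 log2 at 8 h, against 9.98, 10.29 and 10.39 log2 earlier, and rose by 0.98 log2 (SE 0.21, limma adjusted p = 6.56e-03). Smad3, which carries the TGF-beta and activin signal to the nucleus, read 7.60, 7.59 and 7.90 log2 at 8 h, against 6.84, 6.99 and 7.10 log2 earlier, and rose by 0.72 log2 (SE 0.13, limma adjusted p = 1.23e-03). Leaving out 8 h c gave an adjusted p of 0.110 for Id3 and 0.0440 for Smad3. With the distal arrays alone fitted Id1 and the receptor gene Tgfbr1 were also called higher, which made 4 higher and 0 lower (6.2% and 3.52% of all genes). The counts were the same without 8 h c and without 8 h b. Over all 12276 genes that fit called 536 higher and 372 lower without 8 h c, and 400 and 163 without 8 h b. The ligands Bmp2, Bmp6 and Bmp7 differed by 0.10, 0.30 and 0.12 log2 and were not called.

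Icam1, the adhesion molecule that holds leukocytes, was the 1 called of 24 chemokines, cytokines and NF-kappaB targets, at 7.88, 7.97 and 8.13 log2 at 8 h, against 7.22, 7.30 and 7.51 log2 earlier (difference 0.66, SE 0.15, limma adjusted p = 0.0111). Irf1, a transcription factor of the interferon response, was the 1 called of 22 interferon genes, at 7.89, 7.55 and 7.51 log2 at 8 h, against 6.56, 6.70 and 7.01 log2 earlier (difference 0.92, SE 0.23, limma adjusted p = 0.0278). The endothelial adhesion molecule Pecam1 rose by 0.73 log2 (limma adjusted p = 8.64e-03) and Tek, the angiopoietin receptor, by 0.66 log2 (adjusted p = 0.0114), which made 2 of 14 endothelial markers. Over all genes 1.26% were called higher in the same test. The median difference of the 14 endothelial markers was 0.15 log2. The lowest of them, Emcn, differed by -0.36 log2 and was not called. The 2 o arrays of 8 h read 6.74 and 6.53 log2 for Pecam1, within the earlier range of 6.65 to 6.82 log2 for the one and below it for the other. None of the 4 genes called in these lists was called without 8 h c. The limma adjusted p was then 0.123 for Icam1, 0.0926 for Irf1, 0.118 for Pecam1 and 0.0926 for Tek. Without 8 h b Pecam1 alone was called (adjusted p = 0.0445). With the distal arrays alone fitted 5 of the 24 chemokines, cytokines and NF-kappaB targets were called higher, Icam1, Timp1, Ccl3, Cxcl12 and Il1r1, and 0 lower, where 6.2% of all genes were called higher. That fit called 4 higher and 1 lower without 8 h c, and 3 higher and 0 lower without 8 h b. Over all 12276 genes it called 536 higher and 372 lower without 8 h c, and 400 and 163 without 8 h b. Of 20 macrophage markers 0 were called, and the list's median difference was 0.10 log2. Aif1 and Adgre1 of these 20 were called lower in the distal model, against 3.52% of all genes, and without 8 h c 1 was. A second Aif1 probe set differed by 0.10 log2 (limma unadjusted p = 0.736), opposite to the one used, and Cd163 by 0.65 log2, not called.

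**Figure D5:**
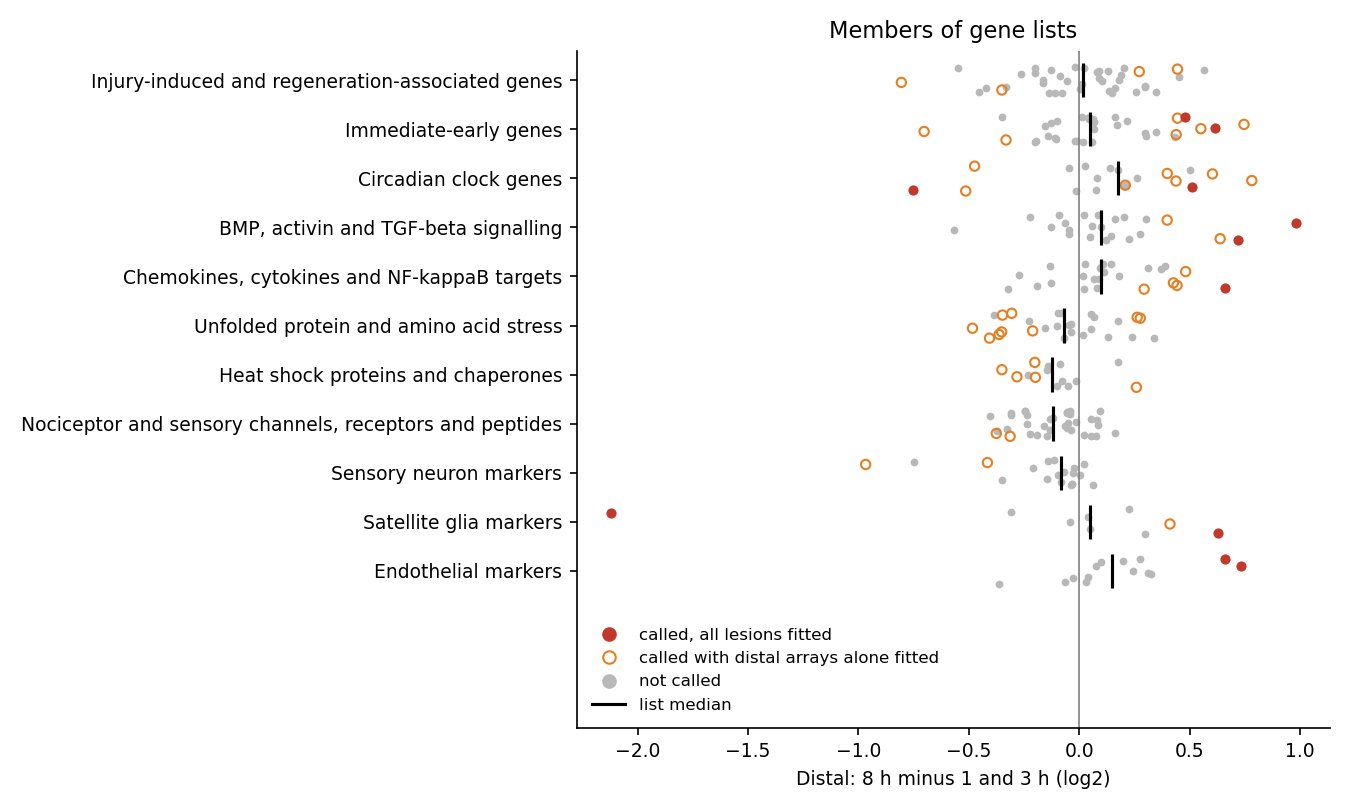
Log2 difference between distal 8 h and distal 1 and 3 h (horizontal axis) of each tested member of 11 lists (rows). Filled red points were called with all lesions fitted, open orange points only with the distal arrays alone fitted, grey points in neither, and black bars are list medians. The injury list centres on 0.02 log2 with no red point, and the lone point at the far left is Fabp7.

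Of 27 genes of unfolded protein and amino acid stress 0 were called across all lesions, where 1.44% of all genes were, and with the distal arrays alone 7 were called lower, against 3.52% of all genes, and 2 higher, against 6.2%. The 7 were Hspa5, the main chaperone of the endoplasmic reticulum, its partners Hsp90b1, Pdia4, Pdia6 and Sdf2l1, the regulator Xbp1 and the serine synthesis enzyme Phgdh. Hspa5 read 11.36, 11.36 and 11.42 log2 at 8 h, against 11.53, 11.74 and 11.89 log2 earlier (difference -0.35, limma adjusted p = 0.323 with all lesions and 4.30e-03 with distal arrays alone). The 8 h arrays lay below the earlier ones for Hspa5, Pdia4, Pdia6, Sdf2l1, Hsp90b1 and Xbp1, as they did in 4.75% of all genes. Without 8 h c 7 of the 27 were called lower in the distal model, and without 8 h b 6, against 372 and 163 of all 12276 genes. Of 14 heat shock genes 4 were called lower in the distal model, against 3.52% of all genes, and 1 higher, the small heat shock protein gene Cryab (0.26 log2), against 6.2%. Without 8 h b 0 were called lower and 1 higher, where the distal model called 163 and 400 of all 12276 genes. Without 8 h c 4 were called lower and 0 higher, against 372 and 536 of all genes, and Cryab differed by 0.17 log2.

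Of the satellite glia markers Fabp7 fell and Sox10 rose by 0.63 log2 (limma adjusted p = 6.53e-03), and these were the 2 called of 9. Of all genes 1.44% were called. The adjusted p of Sox10 was 0.0926 without 8 h c. Glul, the glutamine synthetase of satellite glia, differed by 0.41 log2 (limma adjusted p = 0.0932), and its other probe sets by -0.32 and 0.04 log2. Gfap, Slc1a3, S100b, Sparcl1, Apoe and Gja1 differed by 0.30, 0.23, 0.05, 0.04, -0.04 and -0.31 log2 and were not called. The list's mean was 10.55 log2 at 8 h, against 10.64 log2 earlier, and the list of 11 myelinating Schwann cell markers held 0 called genes with a median of 0.18 log2. With the distal arrays alone fitted 3 of the 11 were called higher and 0 lower, against 6.2% and 3.52% of all genes. Without 8 h c that fit called 1 higher and without 8 h b 4, against 536 and 400 of all 12276 genes.

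Of 19 neuron markers 0 were called, with a median difference of -0.08 log2, and of 35 nociceptor channels, receptors and peptides 0, with a median of -0.12 log2. With 1.44% of all genes called, counts of 0 in lists of this size do not set them apart. Scn10a and Trpv1, a sodium channel and the capsaicin receptor of nociceptors, differed by -0.15 and 0.08 log2. The lowest marker, the synaptic vesicle protein gene Syt1, read 8.34, 6.89 and 7.87 log2 in 8 h a, b and c, against 8.41, 8.66 and 9.01 log2 earlier, and array 8 h b gave the lowest value. The motor gene Kif5c, at 8.57, 6.88 and 8.37 log2 at 8 h, and the growth cone gene Basp1, at 10.78, 9.73 and 10.92 log2, were also lowest on 8 h b. Without 8 h b Syt1, Kif5c and Basp1 differed by -0.56, -0.47 and -0.43 log2. In the distal model 2 of 19 neuron markers, 3 of 22 motor genes and 3 of 24 cytoskeleton genes were called lower. Of all genes 3.52% were called lower in it. That model called 0, 2 and 1 of the same lists higher, against 6.2% of all genes. Without 8 h b it called 0, 0 and 1 of them lower, while lower calls over all 12276 genes went from 432 to 163.

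Of the lists with at least 3 tested genes, 19 of 32 held no called gene and none held more than 2, where 1.44% of all genes were called. Vim was the 1 called of 22 genes of dynein, dynactin and kinesin motors and their cargo partners, 0.27 log2 higher (limma adjusted p = 0.0289). Vimentin is an intermediate filament of glia and connective tissue cells and in injured axons links kinases to dynein. Mt2A was the 1 called of 17 glucocorticoid-responsive genes, and Fkbp5, the usual marker of that response, differed by 0.50 log2 (adjusted p = 0.577). Mcm7, a subunit of the replicative helicase, was the 1 called of 19 cell cycle genes (0.44 log2, limma adjusted p = 0.0431), and Ndrg1 the 1 called of 19 hypoxia and glycolysis genes (0.23 log2). None of Vim, Mcm7 and Ndrg1 was called without 8 h c, at adjusted p = 0.145, 0.301 and 0.148, and without 8 h b the values were 0.158, 0.241 and 0.0143. Alas2 was the 1 called of 4 erythrocyte markers. Importins held 0 of 22, with Kpnb1 at -0.10 log2, cholesterol synthesis 0 of 18, ribosomal proteins 0 of 12 and oxidative phosphorylation 0 of 23.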

How the data were processed

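The values are log2 intensities per probe set that the authors made with RMA, per the submitters' processing notes, and deposited for 72 arrays. RMA brings arrays to a common distribution, which can hide a shift shared by all genes. Versions are not given in the sources used here. Of 31099 probe sets 20826 had 1 gene symbol in the platform annotation, and each of 14217 genes was represented by its brightest probe set on average. The 12276 genes with a mean of at least 5.46 log2 (the 25th percentile of probe sets) were tested in limma 3.58.1 (R 4.3.3) with group means of 66 arrays, 6 o arrays left out, 42 residual degrees of freedom, an intensity trend and Benjamini-Hochberg adjustment over all tested genes at 0.05. Figures and promoter windows used Python 3.11.15. The test was also run on simulated data with independent noise, in which each gene had the same spread in all lesions. Those data held no technical sets and no deviant arrays, so they do not cover these features of the arrays. The number of arrays limits the precision.

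Named were the 15 largest rises and 10 largest falls called, without overlap and outside the muscle list (rises also called without 8 h c), the 4 list members of smallest p, a list of injury, clock and muscle genes whatever their values, the 8 largest called differences between lesions and the genes that most exceed on 8 h c. The members and lists were chosen with earlier results of these data known. Arrays were not treated as paired by letter. Deviations of same-letter arrays correlated at -0.23 to 0.24, which cannot exclude pairing, as arrays of different letters were not compared. Alternatives were the filter, a repeated quantile normalization, array weights, fewer or more arrays in the model, every probe set, the letter as a block, no trend and leaving out each array. Added after seeing the data were 3 h alone as the earlier hour, the 8 h o arrays in place of a to c, and 8 h a alone.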

Additional observations from a re-analysis of the deposited data

Results flagged for a closer look

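Changes between 8 h and the earlier hours that differed between distal and sham arrays, with 1 and 3 h together as the earlier hours, were largest for 8 genes. The difference, distal change minus sham change on the log2 scale in limma, was -2.23 for Fabp7, 1.56 for Pdlim4, 1.56 for Acss3, -1.42 for Taf1d, 1.41 for Prr15, 1.39 for Mt2A, 1.37 for Pnpla7 and 1.29 for Cyp26b1. Distal arrays lay in another technical set than sham arrays, and sham arrays of 1 h in another than those of 3 and 8 h. With 3 h alone as the earlier hour, so that each lesion stayed within its own set, the differences were -2.08, 1.00, 1.28, -0.48, 1.25, 1.26, 1.28 and 1.12 for the same genes in that order, and Pnpla7 alone of the 8 was called. For Taf1d the change was -0.31 log2 in distal and 1.11 log2 in sham arrays with both earlier hours, and 0.15 log2 in sham arrays with 3 h alone. The distal level of Taf1d was 8.77, 7.28 and 8.60 log2 in 8 h a, b and c.

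The distal change minus the proximal change of Pou3f1 was 1.14 log2, from 0.43 log2 in distal and -0.71 log2 in proximal arrays, whose 1 h arrays lay in another technical set. With 3 h alone as the earlier hour the difference was 0.95 log2 and was not called.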

How the results depend on the processing

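None of the 47 named genes that were called changed direction under the alternatives run, and of the 177 called genes 6 had the opposite sign with the 8 h o arrays in place of a to c. The 177 genes called between 8 h and the earlier hours became 1222 with array weights, 639 with only the compared arrays, 1193 with only distal arrays, 51 with 3 h alone, 11 with 8 h a alone and 60 to 153 when 1 array was left out (60 without 8 h b, 62 without 8 h c, 112 without 8 h a, 112 without 3 h c). Between 3 h and 1 h the 1 call became 33 with array weights, 0 with only distal arrays and 0 to 2 when 1 array was left out. The 400 genes whose change differed between distal and sham arrays became 923 with array weights, 910 with only the compared arrays, 5 with 3 h alone and 95 to 646 when 1 array was left out. The 1 gene between distal and proximal changes became 2 with no filter, 0 at the 50th percentile, 7 after another quantile normalization, 463 with array weights, 110 with only the compared arrays, 0 with o arrays, every probe set or 3 h alone, and 0 to 3 when 1 array was left out. The cause of these shifts was not tested. With the array letter as a replicate block the counts were 131, 1, 281 and 0 in the same order, and whether the letters pair the arrays is not settled. Differences between lesions could not be fitted with only distal arrays. Of the 47, 25 were called without 8 h b, 29 without 8 h c, 26 with the 8 h o arrays and 47 with only distal arrays. The 47 include the rises described first, which were chosen among genes also called without 8 h c. The count of 29 is therefore partly set by that choice. Of all 177 called genes, 56 were also called without 8 h c and 55 without 8 h b.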
